A study of Mus musculus with 12 samples.

Results

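The 10 genes described here are 6 suppressors of cytokine signalling (Socs1, Socs2, Socs3, Socs4, Socs5 and Socs6), their relative Cish, and the 3 Pim kinases (Pim1, Pim2 and Pim3). They were taken by name, with earlier results of these data known, from 23387 genes that could be joined across the count files. All 10 were present. RNA was sequenced from bone marrow cells of C57BL/6 mice, either wild type (WT) or homozygous for loss of the Cebpa +42kb enhancer (enhancer-null). Cebpa encodes C/EBPα, the factor that commits progenitors to the granulocyte and monocyte lineages. From each genotype, common myeloid progenitors (CMP) and cells isolated with LSK markers, the fraction without lineage markers but with Sca-1 and Kit, which holds the stem cells, were sequenced. This gave 4 groups of 3 libraries, named below by group and label number, which is 1, 2 or 7 for enhancer-null and 1, 6 or 8 for WT. The labels give no treatment and no age. Since they also do not tie each library to an animal of its own, p-values reflect only how far libraries of a group lie apart, which may be technical in part. Each group held libraries of both sexes by their sex-linked genes (below). Whether libraries of the same sex came from different animals is not given.

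Cytokine receptors without their own kinase activity signal through JAK kinases, which phosphorylate STAT factors so that these enter the nucleus and switch on genes. Many of the genes switched on feed back on the pathway. CISH and the SOCS proteins carry an SH2 domain that recognises phosphorylated receptors or JAKs and a SOCS box that recruits a ubiquitin ligase, and so dampen the signal. SOCS3 restrains signalling through the gp130 and G-CSF receptors and STAT3 in blood cells, whereas Cish and Socs2 are textbook targets of STAT5. The PIM proteins are serine/threonine kinases that promote survival and growth of blood cells, and since they need no activating phosphorylation their activity largely follows their amount.

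STAT dimers bind the palindrome TTCNNNGAA, and this motif was searched in the RefSeq promoter windows (build GRCm38.p6, 250 bases before to 50 after the annotated start). A window was held for 7 of the 10 genes (Socs1, Socs3, Socs4, Cish, Pim1, Pim2 and Pim3). The motif was present in 2 of these 7, Socs3 and Cish, and in 9.55% of the 27025 genes with a window (8.3% of all 32851 windows). The same palindrome with its spacer widened by a base, the form known from STAT6, was found in 0 of the 7 and in 8.01% of genes (6.95% of all windows). The C/EBP motif TTGCNNAA, searched on both strands, was found in 1 of the 7, Pim2, and in 12.2% of genes (10.8% of all windows). The runs of Socs3, Cish and Pim2 are shown because these windows hold a match, which is in capitals. The Socs3 match begins 154 bases before the annotated start, the Cish matches begin at the start and 11 bases after it, and the Pim2 match begins 157 bases before the start. A match describes these letters only and is no evidence of binding.
Socs3 (chr11:117969501-117969530, minus strand, STAT motif): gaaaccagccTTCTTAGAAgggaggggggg
Cish (chr9:107296654-107296683, plus strand, 2 STAT motifs): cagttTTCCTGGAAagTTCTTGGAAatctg
Pim2 (chrX:7878139-7878168, plus strand, C/EBP motif): ggcatgtattTTGCATAAggggcacttgaa

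Between 6170491 and 49149674 reads per library were assigned to genes, and levels are given as CPM (read counts scaled to library size with edgeR's TMM factors). A floor of 3 counts corresponded to 0.0612 to 0.487 CPM, which covers counting error only. Cebpa had 0, 3 and 0 counts in the enhancer-null CMP libraries against 544, 270 and 463 in WT CMP, and 1, 0 and 15 in enhancer-null LSK against 226, 118 and 39 in WT LSK. The genotype labels and Cebpa counts thus did not overlap in either cell type, although edgeR's quasi-likelihood test gave adjusted p = 0.0822 in CMP and 0.4995 in LSK. Ly6a, which encodes Sca-1, was at 153 ± 21.3 CPM (SD, n = 3) in WT LSK and 178 ± 30.1 in enhancer-null LSK, against 4.81 ± 1.37 and 7.26 ± 6.46 in WT and enhancer-null CMP. Some libraries lacked counts for expressed genes. Of 9184 genes averaging 10 CPM or more, 3.56% were at 0 in enhancer-null CMP 1, 1.82% in WT LSK 6, 1.55% in enhancer-null CMP 7 and under 1% in each other library. Among the 10 genes this touched Socs1 (0 counts in enhancer-null CMP 1), Socs2 (0 in enhancer-null CMP 1 and 7) and Socs4 (1 count in enhancer-null CMP 1 and in WT LSK 6). Xist and Y-linked genes split the libraries by sex, with enhancer-null 1 and 2 and WT 1 male and the others female in both cell types, so each group held both sexes.

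Socs3, the feedback inhibitor of gp130 and G-CSF receptor signalling, showed the largest genotype difference of the 10 genes. In CMP it was at 296, 233 and 247 CPM in enhancer-null libraries 1, 2 and 7 and at 9.14, 9.31 and 3.43 CPM in WT libraries 1, 6 and 8. Every enhancer-null library lay far above every WT library, and the group means differed 35.5-fold. Socs3 rose in enhancer-null CMP by 5.15 ± 0.43 (log2 fold change ± SE, edgeR, adjusted p = 0.00619), and it passed in each of the 12 alternative analyses of this comparison (largest adjusted p = 0.0322). In LSK it was at 496, 595 and 540 CPM in enhancer-null libraries and at 70.3, 11.0 and 119 CPM in WT libraries. The groups again did not overlap, with means 8.14-fold apart, but WT LSK 6 was well below the other WT LSK libraries. The LSK difference of 3.05 ± 0.72 did not pass (edgeR, adjusted p = 0.281), and without WT LSK 6 it was 2.53 and passed (adjusted p = 0.0242). The order of the 4 groups was enhancer-null LSK, enhancer-null CMP, WT LSK and WT CMP, and no neighbours in this order overlapped. The narrowest gap was between WT LSK 6 at 11.0 CPM and WT CMP 6 at 9.31 CPM, and enhancer-null CMP against WT LSK was not tested. In bulk samples a change in the number of cells of one type and a change in RNA per cell cannot be told apart, and this holds for every level here.

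**Figure D1:**
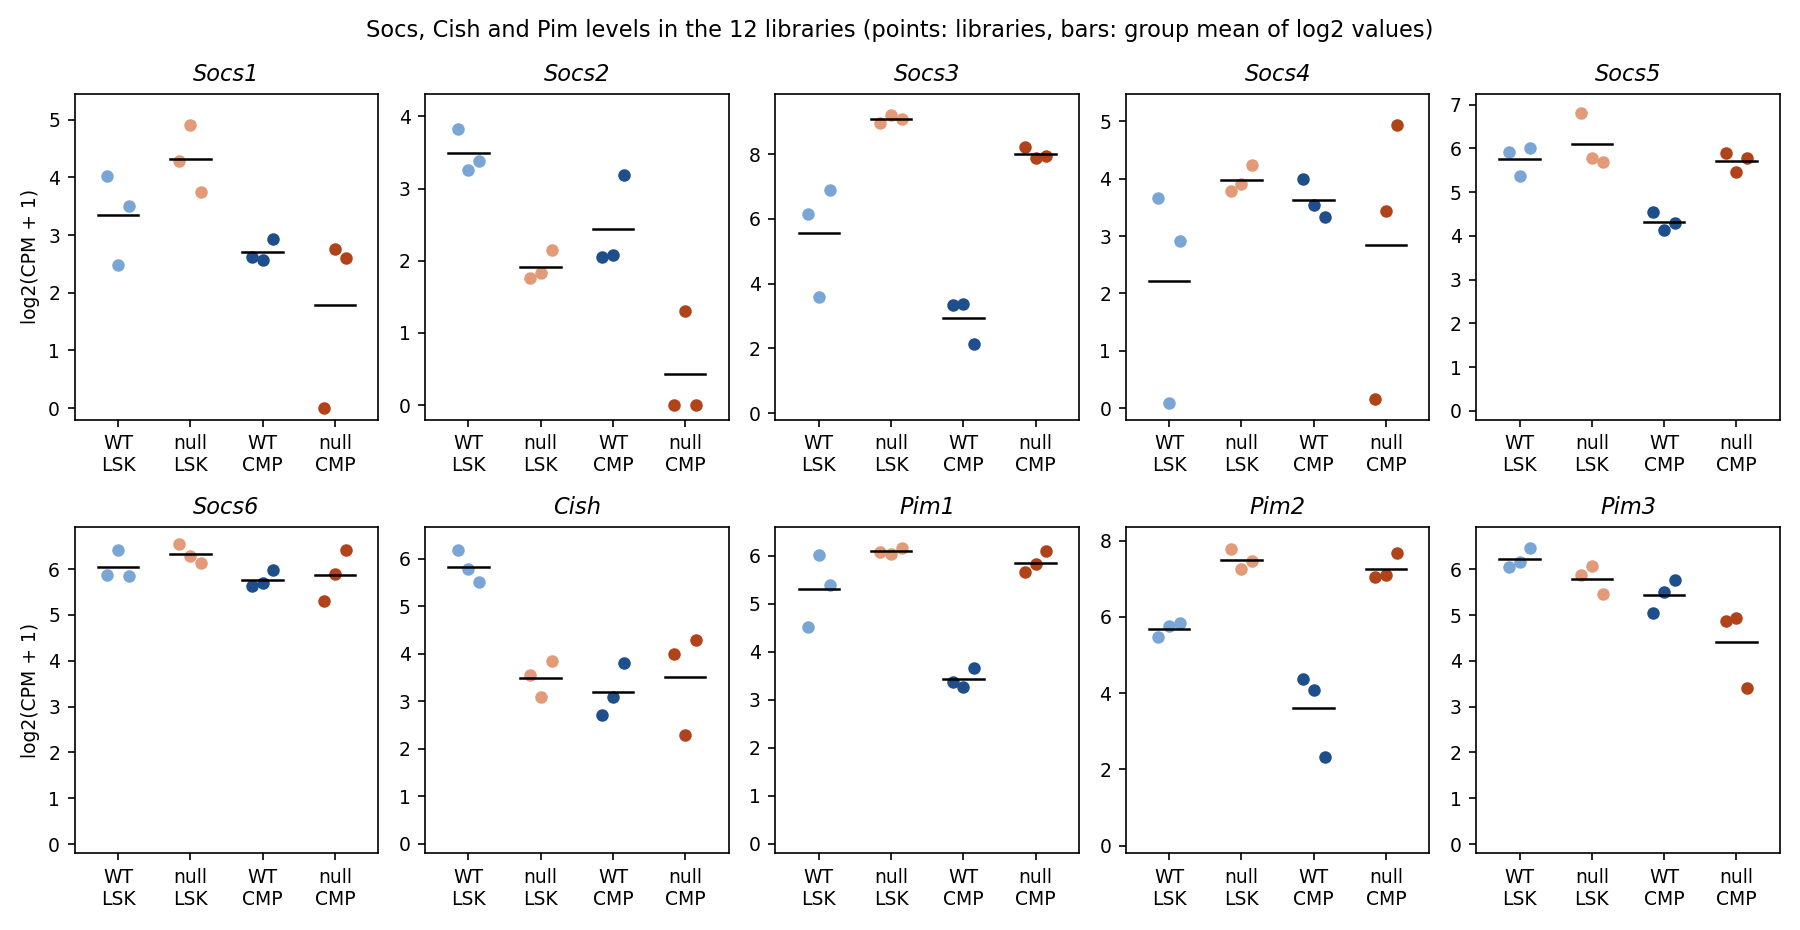
Levels of the 10 genes in each library as log2(CPM + 1), in WT LSK, enhancer-null (null) LSK, WT CMP and null CMP; points are libraries in label order, bars the mean of the 3 log2 values, and each panel has its own vertical scale. Socs3 and Pim2 sit higher in both null groups than in both WT groups, Cish is high in WT LSK alone, and Socs2 is at 0 in 2 null CMP libraries.

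The Pim kinases did not share one pattern. Pim2 was at 130, 135 and 202 CPM in enhancer-null CMP and at 19.8, 16.1 and 4.01 CPM in WT CMP, an 11.7-fold difference of means without overlap. In LSK it was at 219, 151 and 175 CPM in enhancer-null and at 43.1, 52.8 and 56.3 CPM in WT libraries, 3.58-fold apart and again without overlap. Both differences lay just outside the threshold of 0.05 (edgeR): 3.56 ± 0.59 in CMP with adjusted p = 0.0539 and 1.87 ± 0.23 in LSK with adjusted p = 0.0512. Of the 12 alternatives, 3 passed in CMP and 2 in LSK. The 2 enhancer-null groups of Pim2 overlapped each other, and both lay above WT LSK, which lay above WT CMP.

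Pim1 was at 49.5, 55.6 and 67.1 CPM in enhancer-null CMP and at 9.30, 8.58 and 11.6 CPM in WT CMP. The groups were 5.83-fold apart with no overlap, and the log2 fold change of 2.55 ± 0.41 had an edgeR adjusted p of 0.05003, which does not pass. Of the 12 alternatives 6 passed, and adjusted p reached 0.263. In LSK the enhancer-null libraries stood close together at 67.1, 64.9 and 70.3 CPM, while the WT libraries spread over 21.9, 63.7 and 41.0 CPM. WT LSK 6 nearly reached the enhancer-null level, and the difference of 0.70 ± 0.41 did not pass (edgeR, adjusted p = 0.713). Pim1 thus stood apart in WT CMP, below the other 3 groups, and those 3 overlapped in part.

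Pim3 had lower means in the enhancer-null groups, opposite in sign to Pim1 and Pim2. It was at 28.2, 29.6 and 9.66 CPM in enhancer-null CMP and at 32.0, 44.1 and 53.7 CPM in WT CMP. The groups did not overlap, although enhancer-null CMP 1 and 2 lay close to WT CMP 1, and the log2 fold change of -0.94 ± 0.54 did not pass (edgeR, adjusted p = 0.561). In LSK it was at 57.8, 66.0 and 42.8 CPM against 65.6, 70.7 and 87.7 CPM, with overlap by a narrow margin and a log2 fold change of -0.40 ± 0.29 (edgeR, adjusted p = 0.779).

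Cish, the STAT5-induced inhibitor, separated WT LSK from every other group. It was at 71.2, 54.4 and 44.9 CPM in WT LSK and at 10.7, 7.55 and 13.4 CPM in enhancer-null LSK, 5.39-fold lower by the means. The groups did not overlap, and the log2 fold change was -2.40 ± 0.42 (edgeR, adjusted p = 0.128, with 1 of 12 alternatives passing). In CMP it was at 14.9, 3.87 and 18.5 CPM in enhancer-null and at 5.56, 7.47 and 13.1 CPM in WT libraries. These overlapped, and the log2 fold change was 0.52 ± 0.96 (edgeR, adjusted p = 0.900). The 3 groups other than WT LSK overlapped one another. Exons of Cish overlap those of Gm17040 by 261 bases and of Gm17041 by 479 bases on the opposite strand, and Pim1 overlaps Gm26885 by 488 bases. The strand setting of the counting is not given in the sources used here, so reads of these pairs cannot be told apart.

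Socs2, the inhibitor of growth hormone signalling, was scarce in every group and lower in the enhancer-null libraries of both cell types. It was at 2.38, 2.57 and 3.44 CPM in enhancer-null LSK and at 13.2, 8.53 and 9.46 CPM in WT LSK, 3.71-fold apart by the means. In enhancer-null CMP it had 0, 30 and 0 counts (1.47 CPM in library 2), and 0 counts allow up to 0.335 CPM in library 1 and 0.178 CPM in library 7. WT CMP held 3.14, 3.23 and 8.15 CPM. Neither comparison overlapped, and neither passed: the log2 fold change was -1.86 ± 1.01 in LSK (edgeR, adjusted p = 0.697) and -3.26 ± 2.14 in CMP (adjusted p = 0.631). Enhancer-null CMP 1 and 7, the 2 libraries at 0, are also the CMP libraries with the most expressed genes at 0, and the part of this in the Socs2 value was not tested.

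The other SOCS genes differed less. Socs5, which restrains EGF receptor and interleukin-4 signalling, was at 58.5, 42.7 and 54.0 CPM in enhancer-null CMP and at 22.2, 16.6 and 18.6 CPM in WT CMP, without overlap (1.45 ± 0.38, edgeR, adjusted p = 0.178). In LSK its groups overlapped, at 112, 54.3 and 50.6 CPM against 59.8, 40.1 and 63.3 CPM. WT CMP was thus the low group for Socs5, as it was for Pim1. Socs1, the inhibitor of interferon signalling, was at 18.5, 29.1 and 12.4 CPM in enhancer-null LSK against 15.3, 4.61 and 10.4 CPM in WT LSK, and at 0, 5.78 and 5.04 CPM in enhancer-null CMP against 5.18, 4.96 and 6.60 CPM in WT CMP. Both Socs1 comparisons overlapped. Socs6, which targets KIT and other receptor kinases, was the steadiest, with group means of 53.9 to 79.6 CPM and log2 fold changes of 0.18 ± 0.36 in CMP and 0.29 ± 0.28 in LSK. Socs4, a relative of Socs5, was at 12.8, 14.0 and 17.9 CPM in enhancer-null LSK against 11.6, 0.0699 and 6.56 CPM in WT LSK. Its CMP values were 0.115, 9.89 and 29.8 CPM in enhancer-null and 14.9, 10.6 and 9.06 CPM in WT libraries. The Socs4 groups did not overlap in LSK, where 12.8 stood next to 11.6 CPM, and overlapped in CMP.

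**Figure D2:**
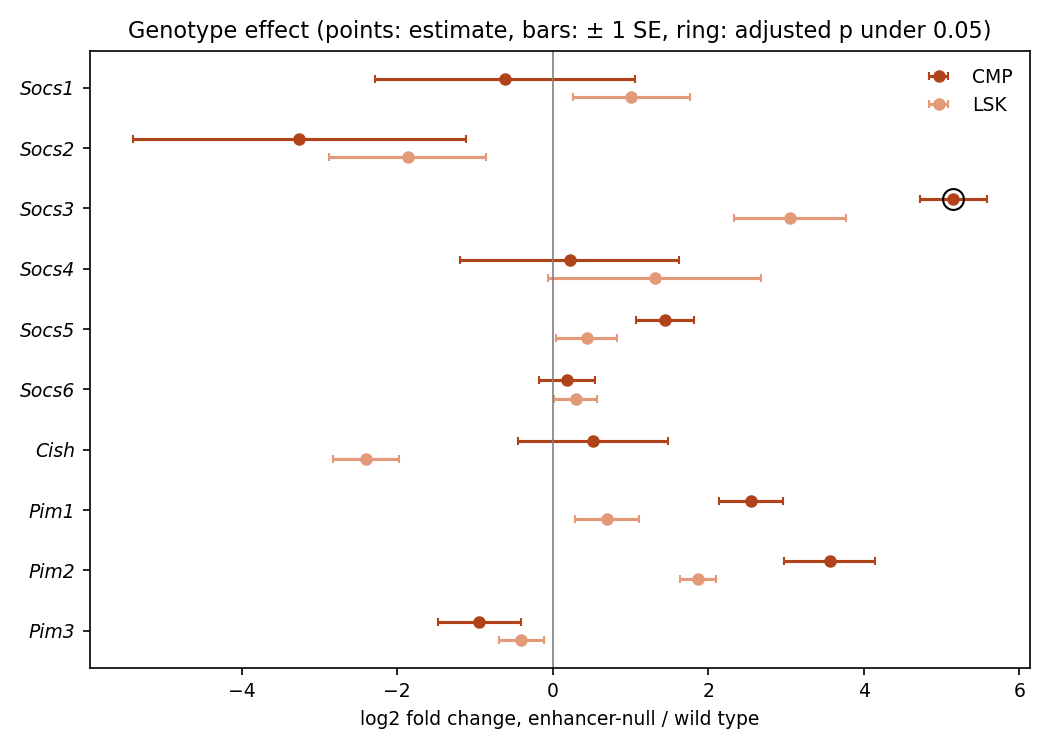
Log2 fold change of enhancer-null against WT for each gene in CMP (dark) and LSK (light), with bars of 1 SE from edgeR's quasi-likelihood fit; a ring marks adjusted p under 0.05. Socs3 in CMP, at 5.15, is the ringed point, while Pim2 lies above 0 in both cell types, and Cish is at -2.40 in LSK and 0.52 in CMP.

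Set against all genes tested, the 10 genes stood as follows. All 10 passed the filter on low counts in each comparison. In CMP edgeR called 1 of the 10 (Socs3), where it called 0.529% of 11723 genes, and DESeq2, which called 6.91% of genes, called 4 (Socs3, Pim1, Pim2 and Socs5). Groups did not overlap for 6 of the 10, 4 higher and 2 lower, against 23.6% of all genes. The median log2 fold change of the 10 was 0.37 (-0.02 over all genes), with 7 positive and 3 negative. In LSK edgeR called 0 of the 10, where it called 0.103% of 11621 genes. At an unadjusted p under 0.05, edgeR had 3 of the 10 (7.92% of all genes), and DESeq2, which called 3.08% of genes, called 4 (Socs3 and Pim2 higher, Cish and Socs2 lower). Groups did not overlap for 6 of the 10, again 4 higher and 2 lower, against 19.0% of all genes. The LSK median was 0.57 (-0.01 over all genes), with 7 positive and 3 negative.

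In WT mice 9 of the 10 genes had lower levels in CMP than in LSK. Cish fell by 2.65 ± 0.47 on the log2 scale (edgeR, adjusted p = 0.0263), from a mean of 56.8 ± 13.3 CPM in WT LSK to 8.70 ± 3.90 in WT CMP (SD, n = 3). It was the 1 gene of the 10 that edgeR called, where it called 4.21% of 12030 genes, and 5 of 13 alternatives passed for it. With 1 library left out, the Cish call held without WT LSK 6 and was lost without any of the other 5 (edgeR, largest adjusted p = 0.124). DESeq2 called 5 of the 10 (Cish, Pim1, Pim2, Socs3 and Socs5, all lower) and 16.7% of genes. The differences of the other 4 were -3.13 ± 0.85 for Socs3, -2.05 ± 0.53 for Pim1, -1.88 ± 0.60 for Pim2 and -1.45 ± 0.35 for Socs5, with edgeR adjusted p between 0.0635 and 0.127. Without WT LSK 6 edgeR called 3 of the 10, Cish (-2.67), Socs3 (-3.63) and Socs5 (-1.62). Groups did not overlap for 7 of the 10, each lower in CMP, against 33.3% of all genes. The median of the 10 was -1.25 against -0.01 over all genes.

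In enhancer-null mice 9 of the 10 genes again had lower estimates in CMP than in LSK. EdgeR called 0 of the 10 and 0.00% of 11267 genes (0 genes), with 2 of the 10 and 6.92% of all genes at an unadjusted p under 0.05. DESeq2 called 1 of the 10, Socs3, and 3.11% of genes. Socs3 differed by -1.07 ± 0.15 between enhancer-null CMP and LSK (edgeR, adjusted p = 0.186), Pim1 by -0.22 ± 0.29, Pim2 by -0.22 ± 0.25, Cish by 0.23 ± 0.98 and Socs5 by -0.48 ± 0.40. These 5, which DESeq2 had called in WT, lay closer to 0 than in WT. They were picked by their WT difference in these data, so this is a description. The difference between the steps is tested by the interaction below. Socs4 was at -0.15 ± 1.41, against 0.99 ± 1.36 in WT. Socs1 (-2.45 ± 1.56, against -0.79 in WT), Socs2 (-2.44 ± 2.13, against -1.04), Pim3 (-1.30 ± 0.53, against -0.73) and Socs6 (-0.38 ± 0.36, against -0.24) lay further from 0. Groups did not overlap for 4 of the 10 (Socs1, Socs2, Socs3 and Pim3), each lower in CMP, against 16.8% of all genes. The median of the 10 was -0.43 against -0.01 over all genes.

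**Figure D3:**
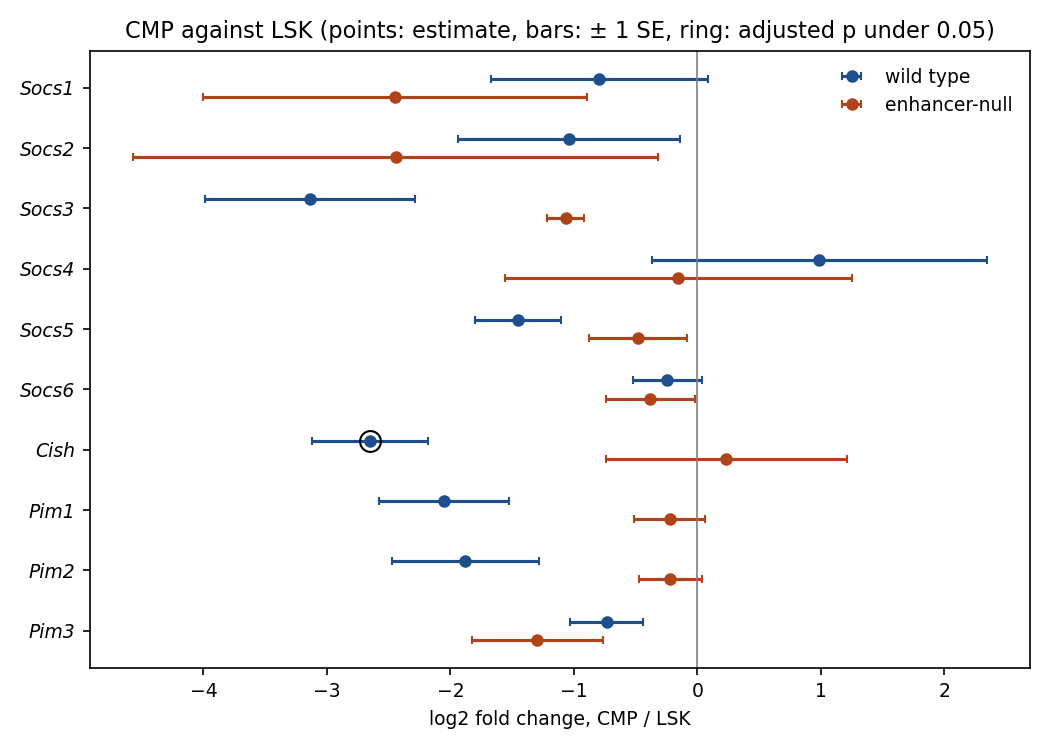
Log2 fold change of CMP against LSK for each gene in WT (blue) and enhancer-null (orange) mice, with bars of 1 SE from edgeR's quasi-likelihood fit; a ring marks adjusted p under 0.05. Cish in WT, at -2.65, is the ringed point, and the enhancer-null estimates of Cish, Pim1 and Pim2 lie within 1 SE of 0.

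Whether the genotype effect differed between the cell types was tested as an interaction over all 12 libraries. EdgeR called 0 of the 10, where it called 0.292% of 12687 genes, with 4 of the 10 and 7.63% of all genes at an unadjusted p under 0.05. These 4 had a more positive genotype effect in CMP, by 2.95 ± 0.96 for Cish, 1.89 ± 0.57 for Pim1, 1.73 ± 0.61 for Pim2 and 2.13 ± 0.82 for Socs3, with edgeR adjusted p between 0.358 and 0.528. DESeq2 called 2 of the 10, Cish and Pim1, and 1.89% of genes. Without WT LSK 6 the Socs3 interaction was 2.63 and passed (edgeR, adjusted p = 0.0449). The median of the 10 was 0.48 against 0.01 over all genes.

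Levels were compared between genes as CPM per kb of exon (union of GENCODE vM21 exons). In WT CMP Pim3 was the most abundant of the 10 at 17.8 ± 4.48 CPM per kb (SD, n = 3), and Socs3 was in place 6 at 2.52 ± 1.16. In enhancer-null CMP Socs3 came first at 89.5 ± 11.4 CPM per kb, followed by Pim2 at 55.7 ± 14.3, whereas Pim3 was in place 4 at 9.27 ± 4.59. In WT LSK Pim3 (30.8 ± 4.78 CPM per kb), Socs3 (23.1 ± 18.7) and Pim2 (18.1 ± 2.45) had the highest means. The spread of Socs3 covered Pim3 and Pim2, and also Pim1 (12.5 CPM per kb), Cish (8.85), Socs5 (8.48) and Socs6 (5.82). In enhancer-null LSK Socs3 was first at 188 ± 17.3 CPM per kb, clear of Pim2 at 65.0 ± 12.4 and Pim3 at 22.9 ± 4.85. Socs2 was the least abundant in every group except WT LSK, where Socs4 at 0.885 ± 0.842 CPM per kb lay below it at 1.09 ± 0.258, within the spread. Cish exon length includes long gene models, so its level per kb is uncertain. The exon unions of Socs2 (9531 bp) and Socs6 (11349 bp) were longer than that of Cish (6419 bp). Their levels per kb, and so the place of Socs2, also depend on the exons counted.

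**Figure D4:**
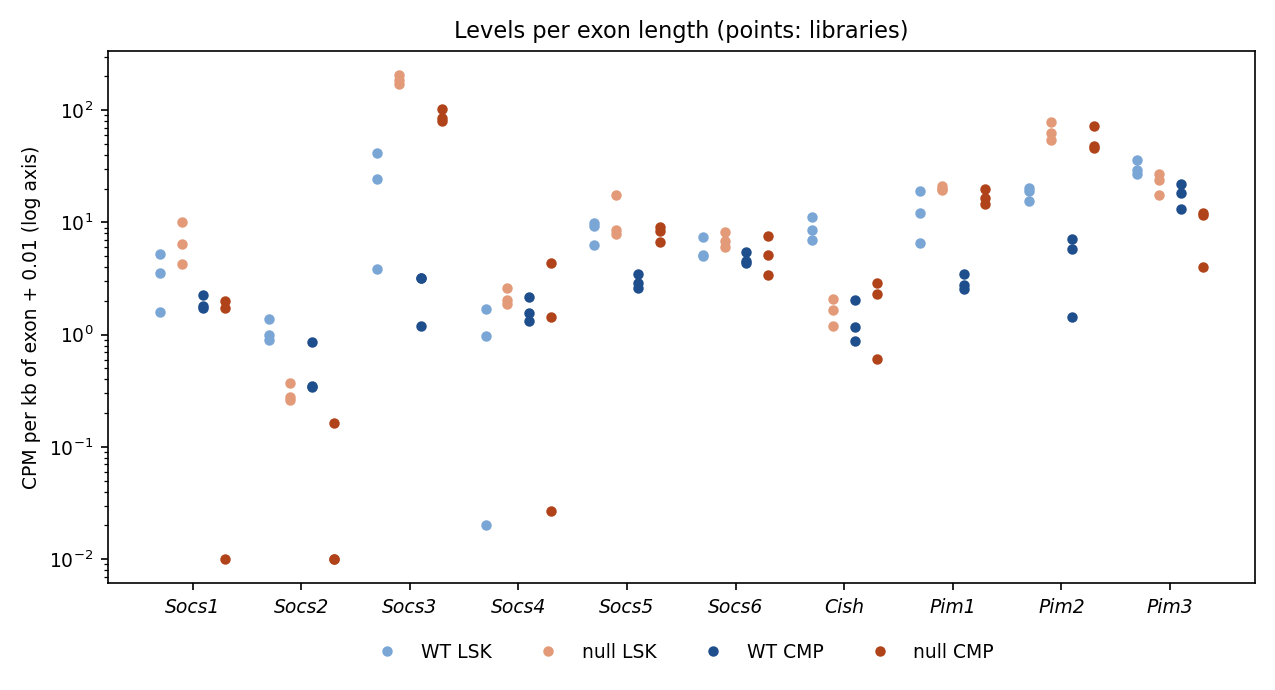
Levels of the 10 genes per kb of exon in each library, as CPM per kb + 0.01 on a log axis; points are libraries coloured by group. Socs3 has the highest null points of all 10 genes, while its 3 WT CMP points are below those of Pim3.

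Socs3, Pim1, Pim2 and Socs5 varied together over the 12 libraries, as a description of libraries that share genotype and cell type. Pearson's r of log2(CPM + 1) was 0.93 between Socs3 and Pim2, 0.89 between Pim1 and Pim2 and 0.82 between Socs3 and Socs5. The lowest r among the 10 genes was -0.55, between Socs2 and Pim2, and Cish and Socs3 had r = -0.10. Among 10187 genes averaging 5 CPM or more, the 3 most like Socs3 were Galnt6 (r = 0.97), Osbpl1a (0.96) and Arhgap6 (0.95). For Pim1 these were Slc22a3 (0.97), Spns2 (0.96) and Bcl3 (0.96), for Socs2 Lbp (0.96), Nucb1 (0.94) and Syne2 (0.93), and for Cish Gtpbp2 (0.91), Akr1c13 (0.91) and Ndn (0.88).

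Upstream of these genes stand the JAK kinases and STAT factors. Of 4 JAK and 7 STAT genes, edgeR called 0 in either genotype comparison, and the medians in CMP were 1.02 for JAKs and 0.22 for STATs. At an unadjusted p under 0.05 edgeR had 3 JAKs and 1 STAT in CMP (12.6% of all genes) and 2 JAKs and 1 STAT in LSK (7.92%). DESeq2 called 3 JAKs and 1 STAT in CMP (6.91% of all genes) and 0 in LSK (3.08%). Stat3 was at 358 ± 86.2 CPM in enhancer-null CMP and 125 ± 38.1 in WT CMP (1.53 ± 0.29, edgeR, adjusted p = 0.0788), and its groups did not overlap. Stat5a and Stat5b, the factors best known for inducing Cish, overlapped between genotypes in both cell types. Jak1, which serves gp130 and interferon receptors, was at 453 ± 86.6 CPM in enhancer-null CMP and 245 ± 27.1 in WT CMP (0.90 ± 0.19, adjusted p = 0.0987). Jak3, the kinase that pairs with the common gamma chain, fell from WT LSK to WT CMP by 1.49 ± 0.22 (edgeR, adjusted p = 0.0175), a call that held without WT LSK 6 and was lost without any of the other 5 libraries (up to 0.0786).

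Of 30 receptors that couple to JAKs, 28 were tested in CMP. In CMP edgeR called 0, with 6 of the 28 at an unadjusted p under 0.05 (12.6% of all genes) and 3 called by DESeq2 (6.91% of all genes). From WT LSK to WT CMP Epor, the erythropoietin receptor, rose by 6.24 ± 1.04 (edgeR, adjusted p = 0.0224, up to 0.0937 without WT LSK 8 or any 1 WT CMP library). Il2rg, the common gamma chain, was at 185 ± 60.3 CPM in enhancer-null CMP and 55.7 ± 4.76 in WT CMP (1.74 ± 0.30, edgeR, adjusted p = 0.0580). Csf3r, the G-CSF receptor, was at 45.3 ± 14.0 CPM in enhancer-null CMP and 95.2 ± 25.4 in WT CMP, without overlap (-1.06 ± 0.36, edgeR, adjusted p = 0.280). Il6st, which encodes gp130, was at 6.88 ± 5.68 against 46.2 ± 20.1 CPM in the same groups, also without overlap (-2.73 ± 1.05, adjusted p = 0.351). Csf3r and Il6st, like Stat5a and Stat5b, were named after their values were seen, because they are the receptors that SOCS3 restrains and the factors that induce Cish.

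Among 14 other inhibitors of the pathway, Usp18, which blocks interferon receptor signalling, rose in enhancer-null CMP from 20.2 ± 5.42 to 87.8 ± 8.63 CPM (2.13 ± 0.33, edgeR, adjusted p = 0.0459, up to 0.231 with a library other than enhancer-null CMP 1 left out). Usp18 was the 1 of the 14 that edgeR called in CMP (0.529% of all genes). There 3 were at an unadjusted p under 0.05 (12.6%) and 2 were called by DESeq2 (6.91%). In LSK 0 passed in edgeR, with 3 at an unadjusted p under 0.05 (7.92% of all genes) and 1 called by DESeq2 (3.08%). Of 6 partners of the SOCS box in the ubiquitin ligase (Elob, Eloc, Cul2, Cul5, Rnf7 and Rbx1), 0 passed in edgeR or DESeq2 in any comparison, with at most 1 at an unadjusted p under 0.05, and their median in CMP was 0.0023. Of 24 other STAT target genes, 23 were tested in each comparison. Junb, an AP-1 subunit, rose in enhancer-null CMP from 272 ± 86.9 to 865 ± 135 CPM (1.69 ± 0.24, edgeR, adjusted p = 0.0359, up to 0.202 with a library other than WT CMP 1 left out) and was the 1 called. At an unadjusted p under 0.05 edgeR had 9 of the 23 in CMP (12.6% of all genes), and DESeq2 called 7 (6.91% of all genes). Osm, a gp130 cytokine, was at 121 ± 35.0 CPM in enhancer-null LSK and 24.7 ± 7.54 in WT LSK without passing (2.32 ± 0.36, edgeR, adjusted p = 0.111). From WT LSK to WT CMP edgeR called 4 of the 23, 3 lower and 1 higher (4.21% of all genes). The lower ones, Junb, Irf1 and the survival gene Mcl1, fell by 2.15, 1.67 and 0.79 on the log2 scale (edgeR, adjusted p = 0.00654, 0.0429 and 0.0439). The Junb call held with any 1 library left out, and those of Irf1 and Mcl1 held only without WT LSK 6 (otherwise up to 0.159).

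Immediate early genes respond to many signals and to cell handling. In CMP edgeR called 3 of the 20, all higher in enhancer-null libraries, where it called 0.529% of all genes. At an unadjusted p under 0.05 it had 10 of the 20 (12.6% of all genes). Fold changes were positive for 13 and negative for 7, among them Fos (649 against 768 CPM). Their median was 0.75 (-0.02 over all genes). Groups did not overlap for 9 of the 20, 9 higher and 0 lower, against 23.6% of all genes. The 20 genes summed to 6718 to 10320 CPM in enhancer-null CMP and 2873 to 6278 in WT CMP, without overlap. The LSK libraries held 8693 to 13090 (enhancer-null) and 10480 to 19480 (WT). Ier3 (3.20 ± 0.23, edgeR, adjusted p = 0.00337), Junb and Ier2 (1.31 ± 0.20, adjusted p = 0.0468) rose in enhancer-null CMP, and Ier3 rose in enhancer-null LSK (1.67 ± 0.14, adjusted p = 0.0128). Ier3 in CMP held with any 1 library left out, Ier2 in CMP held only without enhancer-null CMP 2 (otherwise up to 0.256), and Ier3 in LSK only without WT LSK 6 (otherwise up to 0.135). The LSK sums overlapped between genotypes and the median log2 fold change of the 20 genes there was -0.57. From WT LSK to WT CMP all 20 had negative fold changes. EdgeR called 9 of them (4.21% of all genes), among them Nr4a1 (-3.29 ± 0.26, edgeR, adjusted p = 0.00196) and Dusp2 (-1.68 ± 0.14, adjusted p = 0.00286). The interaction was called for Ier3 (1.57), Junb (1.54) and Egr1 (2.99), with edgeR adjusted p of 0.0196, 0.0434 and 0.0459, and these calls were lost for 7, 10 and 10 of the 12 libraries left out in turn. The part of these genes in the Socs and Pim values was not tested.

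Markers of other cell types also moved with genotype. Mast cell and basophil markers summed to 1772 to 2378 CPM in enhancer-null CMP and 110 to 315 in WT CMP, while in LSK they summed to 487 to 853 (enhancer-null) and 205 to 324 (WT), with 3 of the 10 genes at 0 in every enhancer-null CMP library. Cpa3, a mast cell protease, led them at a mean of 1103 CPM in enhancer-null CMP and 480 in enhancer-null LSK. With Gzmb (463 CPM) and Gata2 (389 CPM) it made up most of the enhancer-null CMP sum. Fcer1a was also higher there, at 14.4 against 0.13 CPM in WT CMP, without overlap. Other genes of the list had lower means in enhancer-null CMP, Hdc at 1.07 against 17.7 CPM in WT CMP (without overlap), Prss34 at 0 against 37.8, Mcpt8 at 6.57 against 18.6 and Ms4a2 at 5.68 against 10.01. Markers of T and NK cells summed to 322 to 590 CPM in enhancer-null CMP and 90.7 to 175 in WT CMP. Nkg7 (260 CPM), Lck (90.2) and Lat (80.4) carried that sum, and the T cell genes Cd3e and Cd2 were at 0 in enhancer-null CMP. Monocyte markers were at 94.2 to 222 CPM against 1053 to 1368, and late neutrophil markers at 3.92 to 27.2 CPM against 25.9 to 2159 in the same groups. In LSK, sums without overlap between enhancer-null and WT were 453 to 513 against 221 to 293 CPM for T and NK cell markers and 131 to 159 against 56.0 to 67.7 for megakaryocyte markers. They were 756 to 1165 against 1411 to 1687 CPM for erythroid markers and 7.30 to 26.8 against 134 to 1381 for late neutrophil markers. Itga2b (means of 123 against 31.8 CPM) carried the megakaryocyte sum, and of the 7 genes 3 had positive and 4 negative fold changes. Car2 (829 against 1466 CPM) carried the erythroid sum, and of the 5 genes tested 2 were positive and 3 negative. Stem cell markers in LSK summed to 1820 to 1972 CPM (enhancer-null) and 3169 to 3299 (WT), without overlap. Markers of CMP and myeloid progenitors summed to 3147 to 4317 CPM (enhancer-null) and 2414 to 2724 (WT) in LSK. Of these 12 genes 6 had positive and 6 negative fold changes in LSK, and Mpo was at 1767 against 365 CPM. In CMP the same markers summed to 3891 to 4645 CPM (enhancer-null) and 6606 to 8016 (WT), with 2 positive and 10 negative. The part of these cells in the levels of the 10 genes was not tested.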

How the data were processed

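The values the authors deposited are unnormalized read counts by gene symbol, in a separate file for each of 12 libraries. Per the labels' protocols, total RNA was amplified with a kit for very small inputs and sequenced as read pairs of 75 bp. The build was mm10 and the tools were HTSeq, Bowtie, TopHat and TopHat2 2.0.4, per the submitters' processing notes. Annotation and strandedness of the counting: not given in the sources used here. Entries naming no gene (37.2% to 46.9% of counts) were left out of library sizes. WT CMP 6 listed 23456 symbols and the other libraries 24420, so the files were joined on 22779 identical symbols and 608 older symbols that the RefSeq gene table (GRCm38.p6) links, and 0.0693% to 0.297% of gene counts were not joined. Replicates of a group differed by a chi-square of 44.3 to 192 per degree of freedom, and no 2 files were identical.

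Computed here, in R 4.3.3: edgeR 4.0.16 (TMM, filterByExpr with a minimum count of 10, robust quasi-likelihood test, Benjamini-Hochberg over all genes at 0.05) on the groups compared, with the interaction fitted on all 12 libraries. The SE is the log2 fold change divided by the root of F, and the coefficient of variation was 0.719 to 0.824. Alternatives were DESeq2 1.42.0, its size factors, no filter, identical symbols, sex as a covariate, all libraries in 1 fit, the replicate number as a block, and each library left out. The edgeR fits were tested on simulated data, and the DESeq2 fits were not. All 10 genes are named. Of each pathway list, up to 4 genes past the threshold in a genotype comparison and up to 3 in a cell type comparison are named, or else the gene of smallest p, and not all are printed; 1 gene these choices took is not reported here. Members and lists were chosen with earlier results of these data known, so no list was given a test of its own. Protein sequences were not used here.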

Additional observations from a re-analysis of the deposited data

How the results depend on the processing

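Under all alternatives Socs3 in CMP kept its direction and its side of the threshold. In CMP edgeR called 1 of the 10 genes, and 2 with DESeq2 size factors, 4 with DESeq2, 3 without a filter, 2 with identical symbols, 3 with all 12 libraries in 1 fit and 1 to 2 with a library left out, where Pim1 joined without enhancer-null CMP 1. Over all genes the 62 calls became 893 with DESeq2, 269 without a filter, 31 with sex as a covariate, 232 in 1 fit of all libraries and 7 (without WT CMP 6) to 91 with a library left out. In LSK the count of 0 of the 10 became 4 with DESeq2, 1 without a filter (Pim2) and 0 to 1 with a library left out (Socs3, without WT LSK 6). The 12 genes called became 390, 39 without a filter, 3 with sex, 26 in 1 fit and 1 (without enhancer-null LSK 1) to 21 (without WT LSK 6). In the WT step the 1 call became 5 with DESeq2, 3 in 1 fit, 0 with sex and 0 to 3 with a library left out (0 without WT CMP 1, 3 without WT LSK 6), and the 507 genes became 2112, 285 with sex and 56 (without WT CMP 8) to 882 (without WT LSK 6). The 3 called in 1 fit of all libraries were Pim1, Pim2 and Socs3, while Cish did not pass there (edgeR, adjusted p = 0.0550). In the enhancer-null step DESeq2 called 1 of the 10 and 366 genes, against 9 genes without a filter and 37 in 1 fit. For the interaction DESeq2 called 2 of the 10 and 243 genes, against 68 without a filter, 12 (without WT CMP 6) to 107 (without enhancer-null CMP 2) with a library left out, and 0 to 1 of the 10. The causes were not tested. Fits that leave a library out assume that a pair varies like the other groups.

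With the replicate number as a block (replicate block), edgeR called 0 of the 10 and 137 genes in the WT step, and 0 of the 10 and 7 genes in the interaction. Whether same-numbered CMP and LSK libraries came from the same animal could not be decided from the data, with 3 libraries a group. Inferred sex matched for every number, while correlations of deviations between same-numbered libraries were weak, at -0.035 to 0.093. WT CMP 6 and enhancer-null CMP 2 correlated best with an LSK library of another number, and each other CMP library with its own.

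Signs turned only for genes that were not called, when 1 library was left out. In CMP Socs4 ran from -1.19 to 0.77 and Socs6 from -0.15 to 0.40, each lowest without enhancer-null CMP 7. In LSK Socs5 ran from -0.0231 (without enhancer-null LSK 1) to 0.63. In the enhancer-null step Socs4 ran from -1.54 to 0.43 and Cish from -0.17 to 0.66, and in the interaction Socs6 ran from -0.41 to 0.0685. Socs1, Socs2 and Socs4 each had libraries at or near 0 counts, and these were not the shallowest: enhancer-null LSK 2, with the fewest reads, held 181, 16 and 87 counts of them.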
